A study of Mus musculus with 4 samples.

Results

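The genes described here are the MYC transcription factor genes and genes of ribosome biogenesis, 39 named genes in all, of which 38 were measured among 19938 genes. A gene's value came from a probe set whose platform annotation gave that symbol alone, and Noc2l, a factor of large subunit assembly, had no such probe set and was not analysed here. The 38 measured genes comprised 3 of the MYC family, 4 of RNA polymerase I, 8 of small nucleolar ribonucleoproteins (snoRNPs), 8 of 60S (large) subunit assembly, 11 of 40S (small) subunit assembly and 4 multifunctional nucleolar proteins. They were measured in CD4+ lymphoma cells from the spleens of homozygous Tet2 gene trap mice (2 arrays) and in CD4+ splenocytes of wild type mice (2 arrays), all on the C57BL/6 strain. Tet2 encodes a dioxygenase that oxidises methylated cytosine in DNA, and a gene trap disrupts a gene by a cassette inserted into it. Red cells were lysed and CD4+ cells were collected on magnetic columns after labelling with a biotinylated antibody, and total RNA was labelled with biotin for Affymetrix arrays. Genotype and malignancy differed together between the groups, so Tet2 loss and tumour state cannot be told apart. Mouse ages and the number of animals behind the arrays are not stated in the labels. The p-values therefore measure only how these samples spread.

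MYC proteins bind DNA as dimers with Max, often at the hexamer CACGTG called the E-box, and are known for raising transcription of genes for nucleolar proteins when lymphocytes are activated. RNA polymerase I transcribes the rRNA precursor in the nucleolus. Box C/D snoRNPs guide its methylation and box H/ACA snoRNPs its pseudouridylation, while assembly factors cut and fold it and add the ribosomal proteins to form both subunits. Ribosome production is high in dividing cells and in many lymphomas, and low in resting T cells.

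The promoters of these genes are shown first because the E-box is the site that MYC and Max dimers recognise. RefSeq promoter windows (GRCm38.p6, from 250 bases before to 50 bases after a transcript start) were found by symbol for 32 of the 38 genes. CACGTG, which reads the same on both strands, occurred in a window of 8 of these 32 genes (25%), against 8.09% of the 27025 genes in the promoter table. The genes with it were Max, Nop2, Tsr1, Wdr43, Pes1, Ltv1, Utp20 and Mybbp1a. For 5 of them, and for Gar1, which had the highest difference outside the MYC family and no CACGTG in its window, 130 bases from 100 before to 30 after the start are printed 5′ to 3′ on the gene's strand, with the E-box in capitals.
Max: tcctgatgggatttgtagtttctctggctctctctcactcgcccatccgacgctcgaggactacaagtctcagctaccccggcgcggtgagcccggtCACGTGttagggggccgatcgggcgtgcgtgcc
Nop2: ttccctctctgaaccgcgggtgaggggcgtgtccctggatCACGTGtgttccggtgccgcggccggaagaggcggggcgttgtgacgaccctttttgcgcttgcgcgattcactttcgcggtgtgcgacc
Tsr1: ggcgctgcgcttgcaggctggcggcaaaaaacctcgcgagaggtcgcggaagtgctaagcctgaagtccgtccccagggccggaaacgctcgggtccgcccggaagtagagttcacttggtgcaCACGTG
Wdr43: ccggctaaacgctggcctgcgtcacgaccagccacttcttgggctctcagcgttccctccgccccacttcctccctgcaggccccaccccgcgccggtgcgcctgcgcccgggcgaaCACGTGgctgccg
Pes1: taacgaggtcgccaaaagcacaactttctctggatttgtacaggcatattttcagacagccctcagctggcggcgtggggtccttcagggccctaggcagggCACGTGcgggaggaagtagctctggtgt
Gar1: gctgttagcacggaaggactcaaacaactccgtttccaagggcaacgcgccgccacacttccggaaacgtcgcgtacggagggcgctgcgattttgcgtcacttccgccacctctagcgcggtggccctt
The printed stretches lie at chr12:76962219-76962348 on the minus strand for Max, chr6:125131783-125131912 on the plus strand for Nop2, chr11:74897980-74898109 on the plus strand for Tsr1, chr17:71616115-71616244 on the plus strand for Wdr43, chr11:3963875-3964004 on the plus strand for Pes1 and chr3:129831367-129831496 on the minus strand for Gar1. Counting the start as position 1, the hexamer begins at -60 in Nop2, at -3 in Max, at 3 in Pes1, at 18 in Wdr43 and at 25 in Tsr1. The median log2 difference between lymphoma and wild type was 0.35 for the 8 genes with the hexamer (from 0.15 to 0.48) and 0.36 for the 24 without it (from -0.06 to 0.87). The lymphoma arrays lay wholly above the wild type arrays for 3 of the 8 and for 16 of the 24, against 20.6% of all genes. Among 3047 other genes of like mean intensity, described below, the share was 35.5%. The contrast between genes with and without the hexamer was not tested. A match of these letters is a description and shows no binding.

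Most ribosome biogenesis genes had modestly higher mean values in lymphoma than in wild type, and none of them, nor any MYC family gene, passed the test. The highest estimates among processing and polymerase genes were 1.72-fold for Gar1 of the H/ACA snoRNPs, 1.61-fold for dyskerin (Dkc1), 1.59-fold for Nop58 of the C/D snoRNPs and 1.58-fold for the polymerase subunit Polr1c, while Bop1, Rrp12 and the catalytic subunit Polr1a had log2 differences of 0.02, 0.02 and -0.06. Each difference was tested in limma over all 19938 genes with Benjamini-Hochberg adjustment and a threshold of 0.05, at which 0 of the 38 genes were called higher and 0 lower, against 1.82% of all genes called higher and 2.46% called lower. The adjusted p-values of the 38 genes lay between 0.113 and 0.986. At an unadjusted p under 0.05 in limma, 7 of the 38 were higher and 0 lower, against 8.73% and 6.92% of all genes. At an adjusted p under 0.1 there were still 0 in either direction, against 3.34% of all genes higher and 3.47% lower. The estimates nevertheless lay almost wholly on one side. Of the 38 log2 differences 37 were positive, against 43.8% of all genes, and both lymphoma values exceeded both wild type values for 22 genes, against 20.6% of all genes. The reverse order occurred for 0 of the 38, against 23.5% of all genes. By size, 7 of the 38 were at least 1.5-fold higher and 0 at least 1.5-fold lower, against 8.03% and 5.81% of all genes. The median log2 difference was 0.33 over the 38 genes and -0.04 over all genes. In bulk RNA fewer cells of a type and less RNA per cell cannot be told apart. With 2 arrays in each group, an exact permutation test of any single gene cannot go below p = 0.333.

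Other genes of like brightness also leaned towards lymphoma, but less strongly. A part of brightness in the shift of the 38 genes was not tested. Of 3047 other genes whose mean log2 intensity lay between the quartiles of the 38 genes (8.89 and 10.03), 61.7% had positive differences, with a median of 0.10, and 35.5% had both lymphoma arrays above both wild type arrays. Under quantile normalization 34 of the 38 differences were positive and their median was 0.25.

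**Figure D1:**
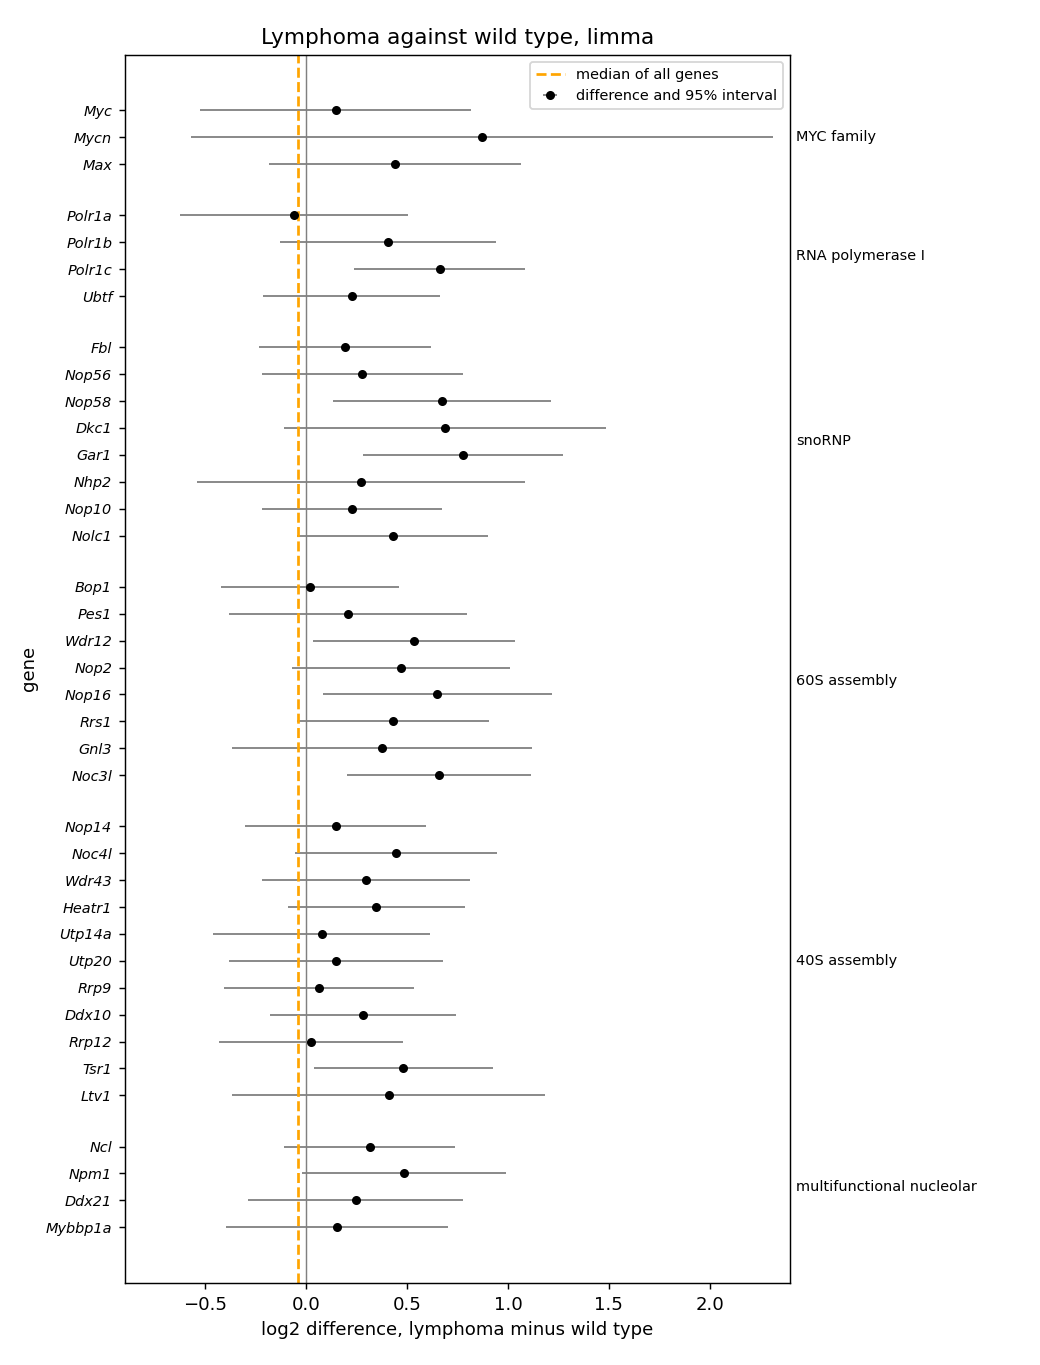
Log2 difference in intensity (horizontal, lymphoma minus wild type) for each of the 38 genes, grouped by role, with the 95% interval from limma as bars and the median of all genes as a dashed line. Points lie from -0.06 (Polr1a) to 0.87 (Mycn), and most intervals include 0.

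The MYC family did not move as one. Myc, the c-Myc gene, had intensities of 1032 and 1598 in lymphoma, against 1371 and 984 in wild type. The groups overlapped, with the second lymphoma highest and the second wild type array lowest. The log2 difference was 0.15 (SE 0.28, adjusted p = 0.896 in limma, 95% interval -0.53 to 0.82), and it was -0.17 without lymphoma array 2. Mycn, the N-Myc paralog used in progenitor cells, had 405 and 99.9 in lymphoma, against 107 and 113 in wild type. Its signal was high on the first lymphoma array alone, and the second lymphoma array lay below both wild type arrays. The log2 difference of 0.87 (SE 0.60, adjusted p = 0.616) was -0.14 with lymphoma array 1 left out and 1.88 with lymphoma array 2 left out. Max, the dimer partner of MYC and MXD proteins, had 1592 and 2575 in lymphoma, against 1585 and 1405 in wild type. The second lymphoma stood apart, and the first exceeded the higher wild type value by less than the wild type arrays differed between themselves (log2 difference 0.44, SE 0.26, adjusted p = 0.532). Without lymphoma array 2 the log2 difference of Max was 0.09. The lymphoma with the higher Mycn signal had the lower Myc and Max signals.

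**Figure D2:**
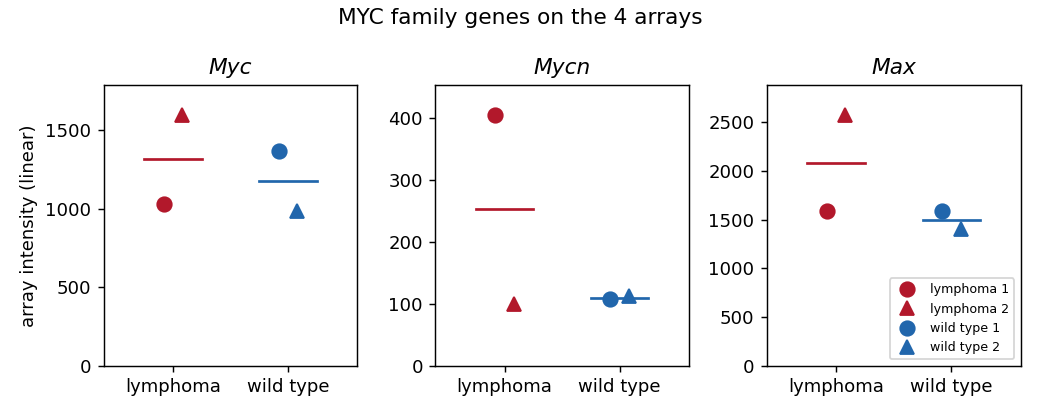
Linear array intensity of Myc, Mycn and Max on the 2 lymphoma arrays (left in each panel) and the 2 wild type arrays (right), with points for arrays and lines for group means. Myc overlaps between the groups, Mycn is high only on lymphoma array 1 (405), and Max is highest on lymphoma array 2 (2575).

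RNA polymerase I genes differed among themselves. Polr1c, an assembly subunit shared with RNA polymerase III, had 1052 and 1146 in lymphoma, against 673 and 716 in wild type. Arrays of a group were close to each other and the groups did not overlap, with a log2 difference of 0.66 (SE 0.17, 1.58-fold, unadjusted p = 0.00837, adjusted p = 0.114 in limma). Polr1b, the second largest subunit, had 955 and 740 in lymphoma, against 713 and 566 in wild type (log2 difference 0.40, SE 0.22). The lower lymphoma value lay just above the higher wild type value. Polr1a, the largest catalytic subunit, had 781 and 547 in lymphoma, against 737 and 632 in wild type. It was the one gene of the 38 with a negative difference (-0.06, SE 0.23, adjusted p = 0.954), and both wild type values lay between those of the lymphomas. Ubtf, the factor that coats active rDNA, had 1836 and 1515 in lymphoma, against 1481 and 1374 in wild type, a log2 difference of 0.23 (SE 0.18). The median difference of these 4 genes was 0.32, or 0.15 with lymphoma array 1 left out and 0.48 with array 2 left out.

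The snoRNP proteins included the highest differences outside Mycn. Gar1, a core protein of box H/ACA particles, had 949 and 750 in lymphoma, against 527 and 458 in wild type. The groups did not overlap, and the log2 difference was 0.78 (SE 0.20, 1.72-fold, 95% interval 0.28 to 1.27, adjusted p = 0.113 in limma), the smallest adjusted p of the 38 genes. Dkc1, dyskerin, the pseudouridine synthase of the same particles, had 908 and 502 in lymphoma, against 500 and 352 in wild type. Lymphoma array 1 was high, while lymphoma array 2 nearly equalled wild type array 1 (log2 difference 0.69, SE 0.33, adjusted p = 0.405). Nop58, a core protein of box C/D particles, had 738 and 564 in lymphoma, against 363 and 451 in wild type (log2 difference 0.67, SE 0.22, adjusted p = 0.203). Its box C/D partners were nearer to wild type, Nop56 at 0.28 (SE 0.20) and the methyltransferase fibrillarin, Fbl, at 0.19 (SE 0.18). A second Fbl probe set gave 0.24. Nhp2 and Nop10, the remaining H/ACA core proteins, differed by 0.27 (SE 0.34) and 0.23 (SE 0.18), and the groups overlapped for Nhp2. Nolc1, a nucleolar chaperone of snoRNPs, differed by 0.43 (SE 0.20). For 7 of the 8 snoRNP genes the lymphoma arrays lay wholly above the wild type arrays, against 20.6% of all genes. The median difference was 0.35, or 0.20 with lymphoma array 1 left out and 0.58 with array 2 left out.

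Large subunit assembly genes had the highest median of the 6 role groups with all 4 arrays in the fit, 0.45, which was 0.27 with lymphoma array 1 left out and 0.71 with array 2 left out. Noc3l, a NOC domain protein of pre-60S particles, had 629 and 522 in lymphoma, against 366 and 361 in wild type (log2 difference 0.66, SE 0.19, adjusted p = 0.141 in limma). The wild type arrays were close to each other and both lymphomas lay above them. Nop16, a nucleolar protein of the same particles, had 1626 and 1353 in lymphoma, against 1132 and 789 in wild type (log2 difference 0.65, SE 0.23, adjusted p = 0.243). The subunits of the PeBoW complex, which acts in maturation of the large subunit rRNA, did not share a value. Wdr12 had 416 and 320 in lymphoma, against 267 and 238 in wild type (log2 difference 0.53, SE 0.21), and 0.32 on a second, dimmer probe set. Pes1 differed by 0.21 (SE 0.24) with overlapping groups. Bop1 had 798 and 743 in lymphoma, against 819 and 708 in wild type, a log2 difference of 0.02 (SE 0.18, 95% interval -0.43 to 0.46). The rRNA methyltransferase Nop2 differed by 0.47 (SE 0.22), Rrs1, which helps bring in the 5S particle, by 0.43 (SE 0.20), and the GTPase nucleostemin, Gnl3, by 0.38 (SE 0.31) with overlapping groups.

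Small subunit assembly genes had a median of 0.28, or 0.13 with lymphoma array 1 left out and 0.41 with array 2 left out. The groups overlapped for 7 of 11 genes, against 55.9% of all genes. The lymphoma arrays lay wholly above the wild type arrays for 4 of 11 (36.4%), against 20.6% of all genes. Among 3047 other genes of like mean intensity the share was 35.5%, so this count did not stand apart from that background. The median log2 intensity of the 11 genes, 8.89, lay at the lower edge of the range of those genes. Tsr1, a GTPase-like factor of late pre-40S particles, had 657 and 582 in lymphoma, against 423 and 464 in wild type, and both lymphomas lay above both wild type arrays (log2 difference 0.48, SE 0.18, adjusted p = 0.272 in limma). Noc4l had 564 and 547 in lymphoma, against 469 and 355 in wild type (log2 difference 0.45, SE 0.21). Its binding partner Nop14 had 542 and 461 in lymphoma, against 442 and 462 in wild type, with overlap and a difference of 0.15 (SE 0.18). Ltv1, another late factor, had 414 and 288 in lymphoma, against 343 and 197 in wild type, so that each group spread more widely than the groups differed (0.41, SE 0.32). Among factors of the early small subunit processome, Heatr1 differed by 0.35 (SE 0.18), Wdr43 by 0.30 (SE 0.21), the helicase Ddx10 by 0.28 (SE 0.19) and Utp20 by 0.15 (SE 0.22). Utp14a at 0.08, the U3 particle protein Rrp9 at 0.06 and Rrp12, which acts in late maturation, at 0.02 were closest to 0, all with overlapping groups. The differences in median between the role groups were not tested, because genes of a group are not replicates.

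Among multifunctional nucleolar proteins, nucleophosmin, Npm1, had 2436 and 1847 in lymphoma, against 1662 and 1385 in wild type (log2 difference 0.48, SE 0.21, adjusted p = 0.344 in limma). Nucleolin, Ncl, an abundant RNA-binding protein, had 3164 and 2594 in lymphoma, against 2412 and 2201 in wild type (log2 difference 0.31, SE 0.17, adjusted p = 0.504). For both genes the lymphoma arrays lay above the wild type arrays, with a narrow gap. The RNA helicase Ddx21 differed by 0.24 (SE 0.22) and Mybbp1a, a Myb-binding protein of the nucleolus, by 0.15 (SE 0.23), each with overlapping groups. The median of these 4 genes was 0.28, or 0.09 with lymphoma array 1 left out and 0.47 with array 2 left out.

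Within each group, array 1 had the higher value for most of these genes. Over the 35 genes outside the MYC family the mean log2 intensity was 9.74 and 9.40 in lymphoma, against 9.31 and 9.14 in wild type. Lymphoma array 2 thus lay nearer to wild type array 1 than the wild type arrays lay to each other. Lymphoma array 1 exceeded lymphoma array 2 for 34 of the 35, against 11247 of all 19938 genes. Wild type array 1 exceeded wild type array 2 for 25, against 10879 of all genes. These orders within the groups were not particular to the 35 genes, since ribosomal protein genes had them for 53 and 47 of 56. Between the groups the ribosomal protein genes differed, with lymphoma array 2 above wild type array 1 for 3 of 56. Of the 35 genes, lymphoma array 1 exceeded wild type array 1 for 34 (97.1%, against 47.8% of all genes). Lymphoma array 2 did so for 23 (65.7%, against 45.4%), with a median log2 difference of 0.06. The shift of the 38 genes was larger on lymphoma array 1, with a median of 0.48 above the wild type mean, against 0.15 for lymphoma array 2. It also depended on the wild type arrays. Without wild type array 2, 29 of the 38 differences were positive (median 0.25), and without wild type array 1 all 38 were (median 0.40). Without lymphoma array 1, 28 of the 38 differences were positive. Without lymphoma array 2, 37 were positive and Mycn, Dkc1, Gar1 and Nop58 passed in limma (adjusted p = 2.11e-05, 0.0107, 0.0222 and 0.0441). In that fit 5.3% of all genes were called higher, and it held 1 lymphoma array and took its error from the wild type arrays.

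**Figure D3:**
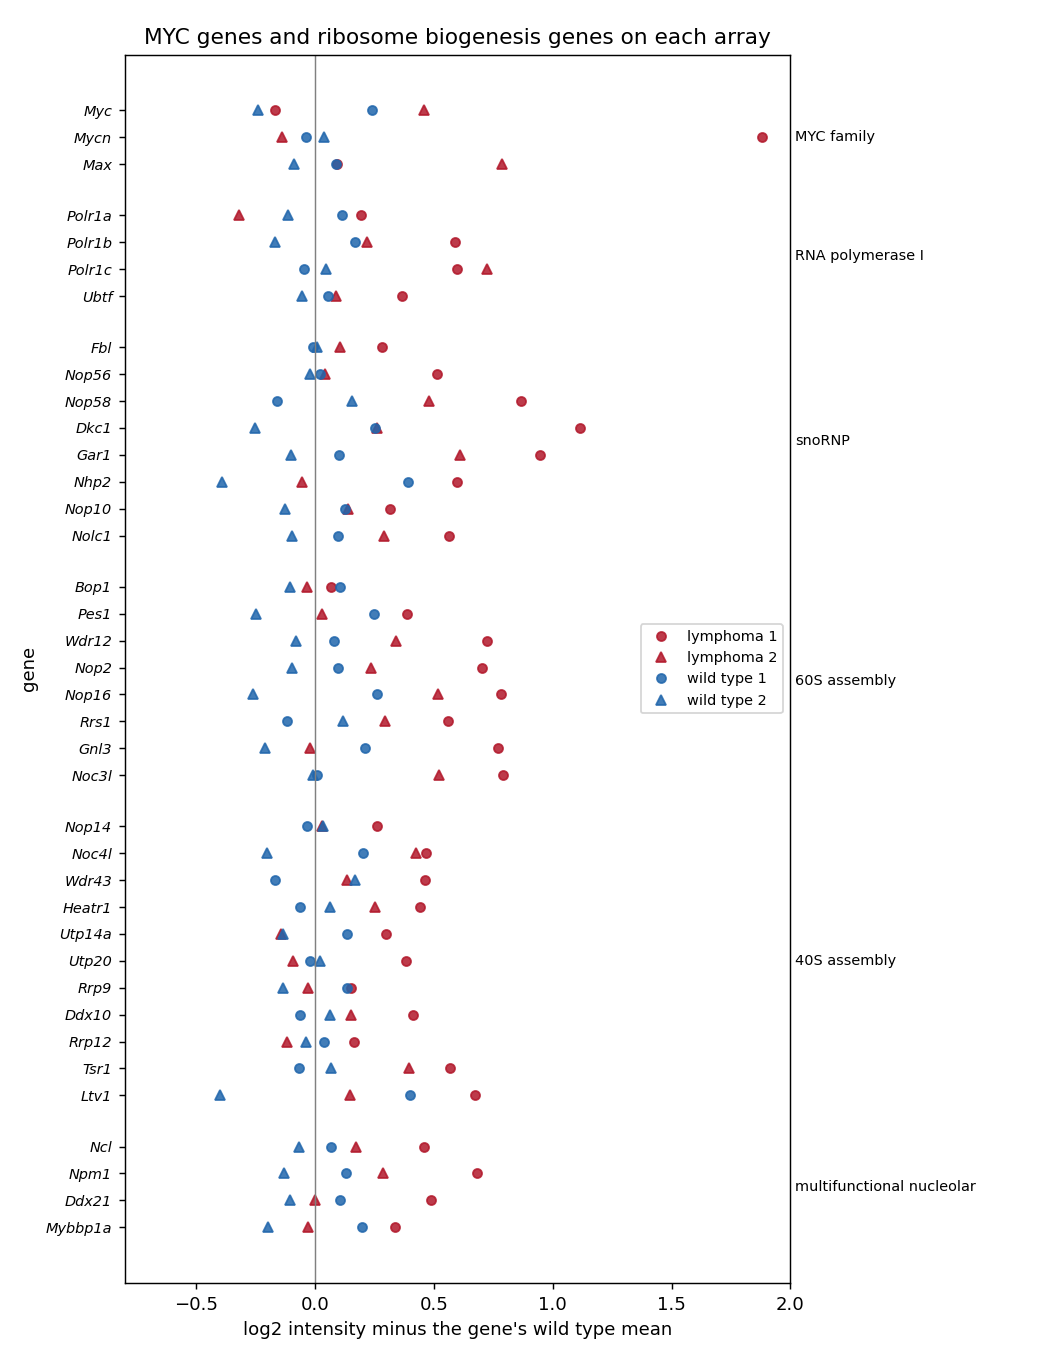
Log2 intensity of each gene on each array relative to that gene's wild type mean (horizontal), for 38 genes grouped by role, with red for lymphoma, blue for wild type, circles for array 1 and triangles for array 2. Lymphoma array 1 is mostly farthest to the right, and lymphoma array 2 lies among or just above the wild type arrays except for Myc, Max and a few others.

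Other genes of the pathway, from lists written from known roles, gave the same direction with smaller medians. For the RNA polymerase I and III lists the medians were close to that of genes of like brightness. None of these genes passed in limma with the settings used throughout. Of 48 further 60S assembly genes 43 had positive differences (median 0.23), and of 50 further 40S assembly genes 46 did (median 0.25). The highest of these were Rcl1, a processome nuclease, at 1.14 (SE 0.27, adjusted p = 0.0801) and Gnl3l, a nucleolar GTPase related to nucleostemin, at 0.99 (SE 0.21, adjusted p = 0.0599), followed by Rrp1b at 0.74 and Utp11 at 0.71 (adjusted p = 0.192 and 0.18). In limma, Gnl3l passed with a robust variance trend (adjusted p = 0.0424), with dim genes left out (0.0498) and with the replicate block (0.0467). Rcl1 passed with the block (0.0312). In these 3 settings 2.22%, 2.99% and 2.15% of all genes were called higher. Of 16 further snoRNP genes 13 were positive (median 0.26), with the assembly ATPase Ruvbl1 at 0.96 (adjusted p = 0.0757, or 0.0477 with array medians subtracted) and Naf1, an H/ACA assembly factor, at 0.62 (adjusted p = 0.205). With array medians subtracted, 2.41% of all genes were called higher. Of 16 further RNA polymerase I genes 13 were positive (median 0.14), with the shared polymerase subunit Polr2e at 0.46 and Taf1d at 0.43. RNA polymerase III genes had 14 of 20 positive (median 0.12), led by Gtf3c5 at 0.60 and Gtf3c3 at 0.48.

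The ribosomal protein and MYC partner lists did not share this direction. Ribosomal protein genes had positive differences for 9 of 56 measured genes of 81 listed (median -0.10), and 0 passed in limma in either direction, while an unadjusted p under 0.05 was reached by 1 higher and 0 lower genes. Rps27l, a paralog of Rps27, had 1383 and 1402 in lymphoma, against 985 and 650 in wild type (0.80, adjusted p = 0.155), and Rps29 was at -0.51 (adjusted p = 0.531). The ribosomal protein median was -0.18 under quantile normalization and -0.06 with array medians subtracted, and without lymphoma array 2 it was 0.06 with 35 of 56 positive, so its direction depended on that array. Ribosomal protein genes have many near-identical pseudogene copies, so these probe sets are uncertain. Among MYC network partners 7 of 14 were positive (median 0.00), with Mycl, the L-Myc gene, at -0.76 (adjusted p = 0.137) and Mxd3, a Max-binding repressor, at 0.43 (adjusted p = 0.349).

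**Figure D4:**
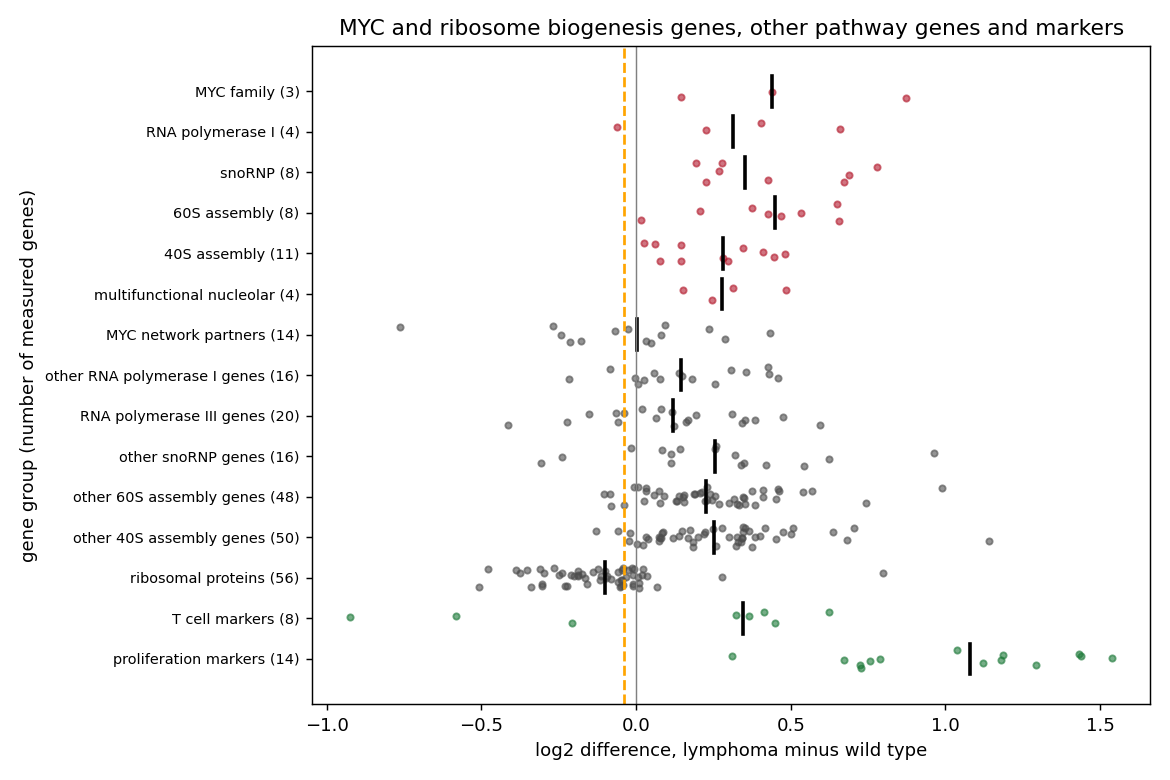
Log2 difference (horizontal, lymphoma minus wild type) of single genes as points and group medians as black bars, for the 6 role groups in red, further pathway lists in grey and marker lists in green, with the median of all genes as a dashed line. Assembly lists lie mostly right of 0, ribosomal proteins mostly left of it (median -0.10), and proliferation markers farthest right (median 1.08).

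The same arrays differed in cell markers. Markers of B cells were lower in lymphoma for 9 of 9 genes, with summed intensities of 3049 and 2708 in lymphoma against 20279 and 13682 in wild type, and those of macrophages and monocytes were lower for 11 of 11 (3506 and 4797 against 12647 and 12759). Dendritic cell markers were lower for 10 of 10 (3451 and 4190 against 9252 and 7901) and plasma cell markers for 6 of 7 (3484 and 3925 against 12788 and 7809). In limma, 8 of these B cell markers and 8 of the macrophage and monocyte markers were called lower, against 2.46% of all genes. So were 6 of the dendritic cell and 3 of the plasma cell markers. No value was 0, and no detection calls were used. T cell markers had positive differences for 5 of 8 genes, ran from -0.92 to 0.63 with a median of 0.34 and a mean of 0.06, and summed to 28161 and 29364 against 24795 and 24058. Proliferation markers were positive for 14 of 14 with a median of 1.08 (23046 and 19259 against 12263 and 11606). Of these 14, 6 were called higher in limma, against 1.82% of all genes. With wild type array 1 left out their median was 1.20, and with the second wild type array left out it was 0.87; limma called 0 of all genes in these fits, and all 14 differences stayed positive. Erythroid markers were positive for 6 of 8 (1419 and 2034 against 1044 and 1222) and NK cell markers for 3 of 6 (4977 and 5379 against 3226 and 2924). The NK cell list had a median log2 difference of -0.24 and a mean of -0.04, so its higher sums were not shared by most of its genes. In limma 1 erythroid, 1 NK cell and 0 T cell markers were called higher, against 1.82% of all genes. The part of these differences in the shift of the MYC and ribosome biogenesis genes was not tested. Tet2 had 596 and 399 in lymphoma, against 980 and 1016 in wild type (-1.03, SE 0.24, adjusted p = 0.0771), with the place of its probes relative to the trap not stated in the labels. Y-linked genes had a mean log2 intensity of 9.44 and 4.47 in lymphoma, against 4.31 and 8.79 in wild type, so that this marker of sex was split within both groups. Median intensity over all probe sets was 138 and 130 in lymphoma and 142 and 141 in wild type.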

How the data were processed

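One single-channel Affymetrix array was run for each of the 4 samples, and groups follow the sample titles. The authors deposited a linear intensity for each of 35556 probe sets on each array. The software was Affymetrix Expression Console, per the submitters' processing notes, with its summarisation, normalization and version not given in the sources used here.

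Intensities were converted to log2 with no pseudocount and no filter. Of the probe sets 21789 had 1 symbol in GEO's platform annotation, 1621 had several and 12146 were not listed. Where a gene had several probe sets, the one with the highest mean log2 value was used, which left 19938 genes, of which 38 belong to the set described. Npm1 is also named on 3 probe sets that carry several symbols, which were not used. Groups were compared in limma 3.58.1 (R 4.3.3) with a variance trend, two-sided, with Benjamini-Hochberg adjustment over all genes. There were 2 residual and 4.24 prior degrees of freedom. The number of arrays limits the precision, with a median SE of 0.20 for a log2 difference. Tested on simulated data with 19938 genes for lymphoma against wild type, the procedure recovered 0% of genes changed by 0.5 log2 units, 2% of those changed by 1 and 66% of those changed by 2, with 4 unchanged genes called. Differences of the size described here are thus mostly below what the test calls.

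The genes and lists were chosen with earlier results of these data known. All genes of the set are named. Of each further pathway list up to 3 called genes by size are named, or the 2 with the largest absolute difference where none was called, and cell markers are given as list summaries. Figures were drawn with matplotlib 3.10.9. Alternatives were 2 normalizations, a filter on genes of low mean level, 2 variance models, averaged or separate probe sets, a pseudocount of 16, the replicate block, a Y-linked covariate, a threshold of 0.1 and leaving out each array.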

Additional observations from a re-analysis of the deposited data

How the results depend on the processing

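With all 4 arrays, no gene of the set was called under any alternative run, including the replicate block and a threshold of 0.1, and the median of the 38 genes was positive under every alternative run. Without lymphoma array 2, 4 were called higher, and this count lay between 0 and 4 over the fits that left out 1 array. The numbers of all genes called depended on which arrays set the spread: 362 were higher and 490 lower with all arrays, and when 1 array was left out the counts lay between 0 and 1057 higher and between 0 and 843 lower. Leaving out a wild type array gave 0 calls in limma (929 to 1418 genes higher and 890 to 1120 lower at an unadjusted p under 0.05), since the error was then taken from both lymphoma arrays only. Over these fits the median lay between 0.15 and 0.48 for all 38 genes and for RNA polymerase I genes, between 0.20 and 0.58 for snoRNP genes, 0.27 and 0.71 for 60S assembly, 0.13 and 0.41 for 40S assembly, 0.09 and 0.47 for multifunctional nucleolar and 0.09 and 0.53 for MYC family genes. Quantile normalization turned Bop1 (-0.0671), Rrp9 (-0.0265) and Rrp12 (-0.0689) negative. With 1 array left out, differences that changed sign ranged over -0.17 to 0.46 for Myc, -0.14 to 1.88 for Mycn, -0.32 to 0.19 for Polr1a, -0.12 to 0.66 for Nhp2, -0.0879 to 0.12 for Bop1, -0.0389 to 0.45 for Pes1, -0.0199 to 0.77 for Gnl3, -0.14 to 0.30 for Utp14a, -0.0915 to 0.38 for Utp20, -0.0716 to 0.20 for Rrp9, -0.12 to 0.17 for Rrp12 and -0.0463 to 0.35 for Mybbp1a. The cause was not tested. The replicate block left the median at 0.33 and the deviations of same-numbered arrays correlated at r = 0.23 across genes, but with 2 pairs these samples share only a number, and the block changed no call on the 38 genes. Among further pathway genes, the log2 difference without lymphoma array 1 was -0.90 for Mycl, 1.09 for Gnl3l, 0.96 for Utp11, 0.92 for Rcl1 and -0.91 for Rps29. Without lymphoma array 2 it was 0.84 for Taf1d, 1.19 for Ruvbl1, 1.03 for Rrp1b, 0.89 for Gnl3l and 1.36 for Rcl1. They are named because they crossed the threshold in these fits, which held 1 lymphoma array. In both fits more of all genes were called than with all arrays, so these genes are not set apart by it.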
